A study of Homo sapiens with 2 samples.

Results

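The genes of the p53 and RB pathways whose chromatin was read in B2B cells were *MDM2*, *MDM4*, *CDKN1A*, *CDKN2A*, *CDKN2B*, *RB1*, *RBL1*, *RBL2* and *E2F1*, that is 9 of the 20033 protein-coding genes in the annotation. They were chosen by name and not by any measured value, as targets of the SV40 T antigen or partners of those targets. Earlier results of these data were known when they were chosen. The assay was ATAC-seq, which finds accessible DNA by where a transposase can insert sequencing adapters. The samples were 2 biological replicates of B2B (BEAS-2B), an immortalized, non-cancerous line of human bronchial epithelial cells of wild-type genotype, with no drug named in the labels. With a single condition there was nothing to test between groups. All peaks within each gene or up to 50 kb from either end of it were considered.

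The p53 protein halts the cell cycle or kills the cell after DNA damage, largely by raising transcription of genes such as *CDKN1A*, and it is held down by MDM2 and MDM4. RB1 and its relatives RBL1 and RBL2 bind E2F factors and silence S-phase genes until cyclin-dependent kinases phosphorylate them. The INK4 inhibitors block those kinases, and ARF, encoded in the same locus, blocks MDM2. BEAS-2B cells were immortalized with an adenovirus-SV40 hybrid virus, and the large T antigen of SV40 binds p53 and all members of the RB family. That background belongs to the line as a whole, and no line without T antigen was analysed here.

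The peak lists held 28735 peaks in replicate 1 and 36162 in replicate 2 on chromosomes 1 to 22, X and Y. The weakest peaks had 16 fragments at the summit in replicate 1 and 13 in replicate 2. A promoter with few fragments could go unlisted, so an absent peak does not show closed chromatin. Peaks of the replicates that overlapped were merged, which left 37661 regions in all, and the 67.4% with a peak from each are called shared. As a check of the labelled cell type, the promoters of 12 epithelial marker genes were read, and 1 of them, that of *KRT18*, was called in each replicate. The other 11, among them *CDH1*, *EPCAM*, *KRT5* and *TP63*, had none in either, and this count was 0 to 2 with other promoter windows or start sites. The share over all protein-coding genes was 52.2%, so these markers gave no support to the epithelial label.

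Of the 9 genes, 8 had open chromatin at their canonical promoter in both replicates, and *CDKN2B*, *CDKN2A*, *E2F1* and *RB1* had the highest means of the 2 replicates. *RBL1* was the exception, with weak peaks in replicate 2 and none in replicate 1. With replicate 2 alone all 9 were called, as were 57.9% of all protein-coding genes. A promoter peak was one that overlapped 1 kb to either side of the transcription start site (TSS) of the canonical transcript. Among all protein-coding genes 52.2% had such a peak in both replicates. The 9 promoters held 52 to 127 CpG dinucleotides within 500 bp of the TSS, against a median of 66 over all genes, and among all protein-coding genes with CpG counts in that range 72.2% had a peak in both replicates. The count of 8 of 9 is therefore set against a high share of like promoters, and nothing particular to these genes is read from it.

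**Figure D1:**
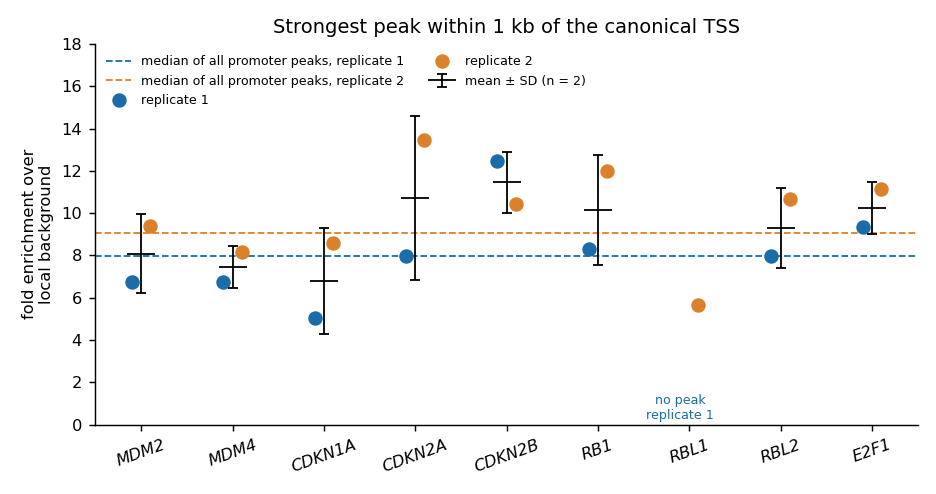
Fold enrichment of the strongest peak within 1 kb of the canonical TSS (linear y axis), for each of the 9 genes in replicate 1 (blue) and replicate 2 (orange), with the mean ± SD of the 2 replicates in black and the median of all promoter peaks of each list as a dashed line. *CDKN2B* stood highest on the mean at 11.5, *CDKN1A* lowest at 6.80, and *RBL1* had a value in replicate 2 alone.

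The strength of these promoter peaks was that of promoters in general. Fold enrichment, the fragments at a peak's summit over those of the local background, had a median over the 8 genes of 7.97 in replicate 1 and 10.5 in replicate 2. The corresponding medians over the 10461 genes with a promoter peak in both replicates were 8.14 and 9.64. Mean values ranged from 6.80 at *CDKN1A* to 11.5 at *CDKN2B*. The spread between replicates was wide beside this range, from an SD of 0.989 at *MDM4* to 3.89 at *CDKN2A*, so the order of neighbouring genes is not resolved. Of the 8 genes, 7 were higher in replicate 2, as were 71.5% of all genes with a promoter peak in both.

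Of the p53 arm, *MDM2* (chr12:68808177-68845544, plus strand, hg38, ENSG00000135679.27) had the most finely divided promoter. MDM2 is the ubiquitin ligase that marks p53 for destruction. Its gene has an upstream promoter, P1, and an internal promoter, P2, in the first intron, through which p53 itself induces *MDM2*. Within 1 kb of the canonical TSS lay 3 separate shared regions. The P1 region, from 68807910 to 68808371, had a fold enrichment of 6.76 in replicate 1 and 9.39 in replicate 2, with 38 and 45 fragments at the summit. A weak region followed, from 68808439 to 68808612, at 3.47 and 3.66. The P2 region, from 68808667 to 68809090, reached 4.68 and 8.65, with summits 672 and 700 bp downstream of the canonical TSS and 26 and 41 fragments. P1 was thus stronger than P2 in each replicate, although the gap between the replicates at P2 was larger than the gap between P1 and P2 within either. *MDM2* and *RBL2* had 3 shared regions within 1 kb of the TSS, and *E2F1* had 2. Among all protein-coding genes 0.449% had 3 or more and 6.95% had 2 or more, shares looked up after the values of these genes had been seen.

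The P2 sequence is shown because it holds the p53 elements through which the gene is known to respond. It lies in the first intron, just upstream of the first annotated start of P2 at 825 bp, and capitals mark 2 matches to the p53 response element, which begin 746 and 784 bp downstream of the canonical TSS. The element was taken as 2 adjacent decamers of the p53 consensus with no spacer and at most 3 mismatches in 20 letters, and it reads the same on both strands.
MDM2 P2, chr12:68808913-68808992, plus strand: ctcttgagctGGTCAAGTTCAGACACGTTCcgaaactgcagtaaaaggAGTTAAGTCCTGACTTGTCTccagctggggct
The upstream match had 2 mismatches and the downstream match had 3. Both lay inside the P2 peak of each replicate, the upstream match 83 bp from the summit in replicate 1 and 55 bp in replicate 2. Within 100 bp of the summit, 2.01% of all shared promoter regions held such an element.

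**Figure D2:**
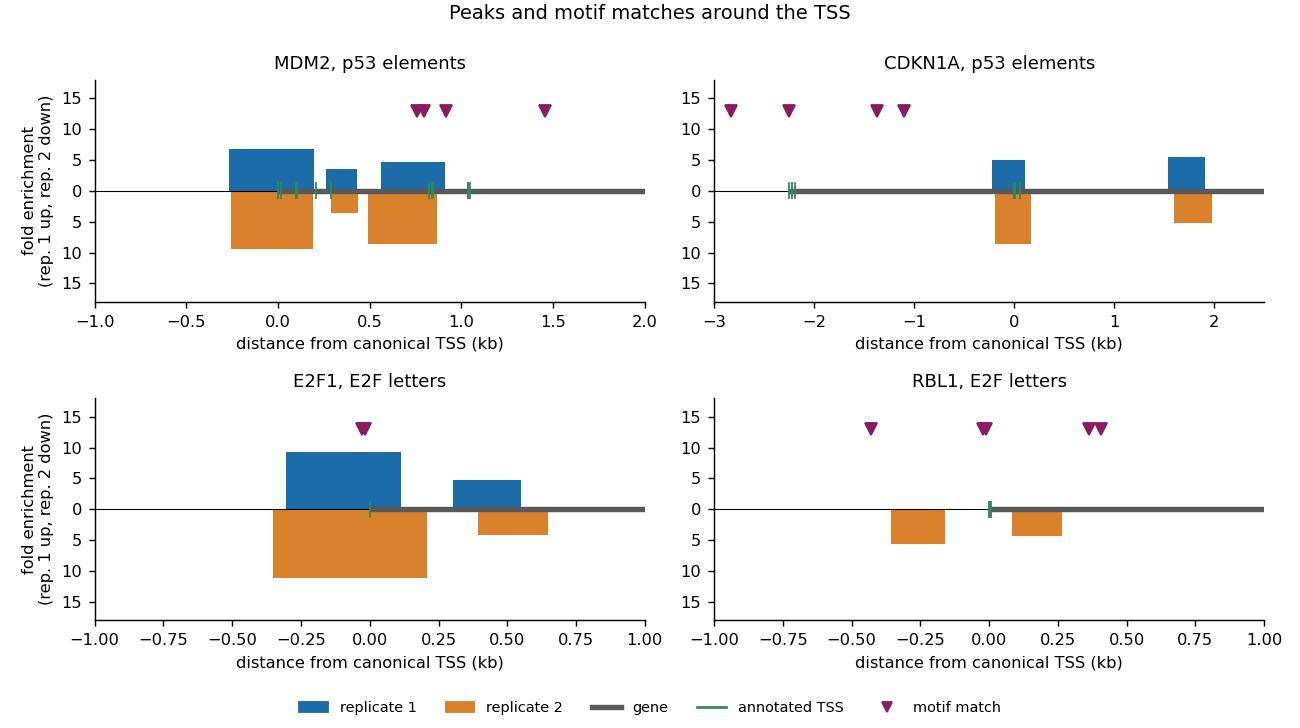
Peaks of replicate 1 (blue, upward) and replicate 2 (orange, downward) drawn to scale by start, end and fold enrichment around the canonical TSS of *MDM2*, *CDKN1A*, *E2F1* and *RBL1*, with distance in kb on the x axis, the gene in grey, annotated start sites in green and motif matches as purple triangles. The upstream pair of p53 matches at *MDM2* sits over a peak in both replicates, that of *CDKN1A* at 2265 bp upstream sits over none, and the E2F letters nearest to the TSS of *RBL1* fall between its 2 peaks.

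*CDKN1A* (chr6:36676460-36687337, plus strand, ENSG00000124762.14) encodes p21, the kinase inhibitor through which p53 arrests the cycle. Its canonical promoter had a fold enrichment of 5.02 in replicate 1 and 8.57 in replicate 2, with 28 and 44 fragments, so the replicates differed by 1.71-fold. In replicate 1 14.8% of promoter peaks were weaker, and in replicate 2 45.1% were. A second shared region in the first intron, from 36680252 to 36680688, was at 5.54 and 5.19, so it exceeded the promoter in replicate 1 and not in replicate 2. The well-known p53 element upstream of the gene lay outside any peak in either list. That element is shown because it is the reference site of p53 induction:
CDKN1A element, chr6:36676449-36676468, plus strand: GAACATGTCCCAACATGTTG
It had 2 mismatches, began 2265 bp upstream of the canonical TSS, overlapped an annotated alternative start, and was 2162 bp from the nearest summit in replicate 1. A further p53 match with 1 mismatch lay in a peak of replicate 2, from 36667177 to 36667366, at 5.44 and with 23 fragments. Replicate 1 had no peak there. The stretch around that match is given with the match in capitals.
CDKN1A upstream peak of replicate 2, chr6:36667218-36667317, plus strand: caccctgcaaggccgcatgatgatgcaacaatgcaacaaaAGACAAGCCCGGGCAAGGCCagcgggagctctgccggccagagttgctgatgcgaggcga
This match lay 33 bp from the summit in replicate 2. Across the whole span of *CDKN1A* there were 27 such matches, of which 0 lay in a shared region, and the match in the upstream peak rested on replicate 2.

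*MDM4* (chr1:204516379-204558120, plus strand, ENSG00000198625.14), whose product binds p53 and blocks its activity without degrading it, had a single narrow promoter region from 204516235 to 204516514. The peak was at 6.76 in replicate 1 and at 8.16 in replicate 2, with 38 and 35 fragments, and its summits lay 29 and 51 bp upstream of the TSS. The promoter had the fewest CpG dinucleotides of the 9, at 52. Replicate 2 alone had peaks 9.30 and 9.74 kb upstream of the gene, at 4.76 and 5.89. The annotated internal start sites of *MDM4*, beginning 9084, 21451 and 26383 bp downstream, had no peak within 1 kb in either replicate.

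The INK4b-ARF-INK4a locus on chromosome 9 was open at every one of its major promoters in both replicates. *CDKN2A* (chr9:21967752-21995301, minus strand, ENSG00000147889.18) makes p16INK4a from its canonical promoter and p14ARF from a promoter upstream that splices into the same exons in another reading frame. *CDKN2B* (chr9:22002903-22009305, minus strand, ENSG00000147883.12) encodes p15INK4b. The INK4a promoter region, from 21974719 to 21975362, had a fold enrichment of 7.97 in replicate 1 and 13.5 in replicate 2, with 45 and 64 fragments. Its summits lay 302 and 226 bp upstream of the TSS.

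The ARF promoter was covered by a pair of shared regions, which the gene shares with the divergent start sites of the antisense RNA *CDKN2B-AS1*. The weaker region, from 21995102 to 21995553, spanned the most upstream annotated ARF starts and was at 4.83 and 5.04. The stronger, from 21994194 to 21994936, spanned the other annotated ARF starts, which lie further downstream. It was at 7.84 and 8.38, with 48 and 55 fragments. ATAC-seq carries no strand, so accessibility of ARF and of *CDKN2B-AS1* cannot be told apart here. The ARF region matched INK4a in replicate 1, at 7.84 against 7.97, and was lower in replicate 2, at 8.38 against 13.5.

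*CDKN2B* had the highest mean of the 9 promoters. Replicate 1 gave a fold enrichment of 12.5 and replicate 2 gave 10.4, a mean of 11.5 ± 1.43 (SD, n = 2), with 71 and 70 fragments. It was the only gene of the 8 with a higher value in replicate 1. Replicate 1 split this promoter into 2 peaks, the second at 5.02, and replicate 2 had a single peak, so the merged region was 988 bp wide. A distal region lay 43.3 kb upstream of *CDKN2B*, from 22052417 to 22052997, within *CDKN2B-AS1*. It reached 9.01 in replicate 1 and 12.2 in replicate 2, within the range of the promoters of the locus, with 51 and 53 fragments, and its summits in the replicates were 9 bp apart.

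**Figure D3:**
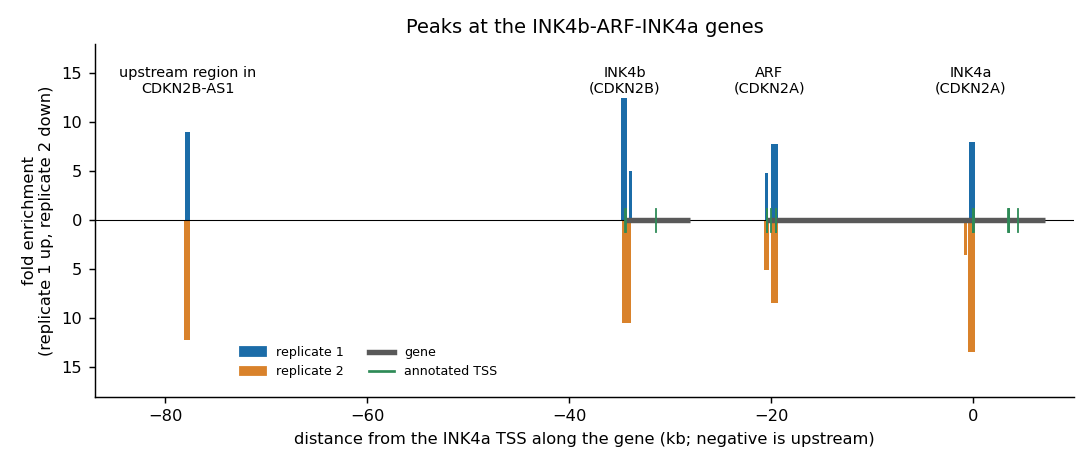
Peaks at the INK4b-ARF-INK4a genes, with replicate 1 upward in blue and replicate 2 downward in orange, by fold enrichment (y axis) and distance from the INK4a TSS along the gene (x axis, kb). Bars narrower than the plot can show are widened, grey lines are the genes and green ticks the annotated start sites. The promoters of INK4a, ARF and INK4b and the region 43.3 kb upstream of *CDKN2B* had peaks in both replicates.

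Sequences of 3 of these regions are shown, for the E2F letters at ARF, a gene known to respond to E2F1, and for the p53 matches at *CDKN2B*. The E2F letters searched on both strands were TTTCCCGC, TTTCGCGC, TTTGCCGC and TTTGGCGC, and capitals mark the matches.
ARF first intron, chr9:21994627-21994726, minus strand: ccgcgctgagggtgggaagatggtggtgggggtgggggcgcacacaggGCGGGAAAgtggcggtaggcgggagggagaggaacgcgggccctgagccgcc
CDKN2B promoter, chr9:22009413-22009492, minus strand: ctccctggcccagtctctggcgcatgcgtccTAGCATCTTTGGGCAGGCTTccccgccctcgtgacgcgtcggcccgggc
CDKN2B 43 kb upstream, chr9:22052575-22052674, minus strand: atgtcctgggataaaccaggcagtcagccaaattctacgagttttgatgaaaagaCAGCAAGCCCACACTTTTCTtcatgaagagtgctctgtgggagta
The ARF stretch is intronic only for transcripts from the more upstream ARF starts, and it lies upstream of the ARF starts closest to INK4a. The E2F match lay 91 bp from the summit in replicate 1 and 34 bp in replicate 2. Each p53 match at *CDKN2B* had 3 mismatches, the most allowed, and neither was found when 2 were allowed.

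Of the RB family, *RB1* (chr13:48303744-48599436, plus strand, ENSG00000139687.16) had a single promoter region, from 48303282 to 48303897, shared with the divergent transcript *RB1-DT*. This promoter was at 8.32 in replicate 1 and at 12.0 in replicate 2, with 47 and 52 fragments and summits 105 and 68 bp upstream of the TSS. The gene spans 296 kb, and the only other shared region in it was at the promoter of *RCBTB2*, 229 kb downstream, at 14.0 and 16.6, and it belongs to that gene by position. Replicate 2 alone had an intronic peak 97.4 kb downstream, at 5.44, with a p53 match of 3 mismatches near its summit.

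*RBL2* (chr16:53433977-53491648, plus strand, ENSG00000103479.17), which encodes p130, the family member most abundant in resting cells, had 3 shared regions around its start. The region at the canonical TSS was at 5.02 in replicate 1 and 8.44 in replicate 2. The middle region, with summits 378 and 371 bp downstream, was at 6.24 and 6.54. The farthest, near an annotated internal start 1148 bp downstream, was at 7.97 and 10.6, with 45 and 46 fragments, and was the strongest of the 3 in each replicate. The mean promoter value of *RBL2*, 9.31, came from that farthest region, and was 7.34 when the window was narrowed to 500 bp.

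*RBL1* (chr20:36996349-37095997, minus strand, ENSG00000080839.12) encodes p107, which accumulates in cycling cells. Replicate 2 had a peak from 37096158 to 37096352 at 5.66 with 24 fragments, and another from 37095732 to 37095915 at 4.30 with 18 fragments, on either side of the TSS. Replicate 1 had neither, and its nearest summit was 82413 bp from the E2F letters of this promoter. Of the promoter peaks of replicate 2, 15.2% were weaker than 5.66. Among 1367 genes whose promoter peak in replicate 2 was within 10% of the *RBL1* value, 74.0% also had a peak in replicate 1. The open promoter of *RBL1* therefore rests on replicate 2, with 24 fragments against the 16 of the weakest peaks of replicate 1.

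*E2F1* (chr20:33675477-33686385, minus strand, ENSG00000101412.13), the activator that RB1 restrains and that drives S-phase genes, had a strong promoter region from 33686177 to 33686735. It was at 9.36 in replicate 1 and at 11.1 in replicate 2, with 53 fragments at the summit in each and the summit 203 bp upstream of the TSS in each. A weaker region downstream of the TSS, from 33685736 to 33686081, was at 4.68 and 4.22. The *E2F1* promoter held 127 CpG dinucleotides, the most of the 9, and 95.3% of protein-coding promoters had fewer.

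Of the 9 promoters, 4 held E2F letters between 250 bp before and 50 bp after the canonical TSS, namely *E2F1*, *RBL1*, *RB1* and *MDM2*, against 4.36% of all protein-coding promoters. *E2F1* and *RBL1* held 2 matches each, which 0.2% of all promoters do. The stretches upstream of the TSS are shown with the letters in capitals, for comparison of their position with the peaks.
E2F1 promoter, chr20:33686386-33686485, minus strand: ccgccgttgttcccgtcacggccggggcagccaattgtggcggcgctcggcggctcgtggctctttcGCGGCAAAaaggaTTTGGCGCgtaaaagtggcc
RBL1 promoter, chr20:37095998-37096097, minus strand: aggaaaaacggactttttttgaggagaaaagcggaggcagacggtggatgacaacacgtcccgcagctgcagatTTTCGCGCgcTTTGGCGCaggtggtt
RB1 promoter, chr13:48303644-48303743, plus strand: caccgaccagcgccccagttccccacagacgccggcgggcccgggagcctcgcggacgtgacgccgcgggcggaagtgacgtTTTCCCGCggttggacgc
MDM2 P1 promoter, chr12:68807900-68807999, plus strand: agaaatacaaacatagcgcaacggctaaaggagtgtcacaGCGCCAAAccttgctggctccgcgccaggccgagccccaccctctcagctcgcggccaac
At *E2F1*, *RBL1* and *RB1* the letters lay within 33 bp of the TSS, and at *MDM2* they began 237 bp upstream. Those of *E2F1*, *RB1* and *MDM2* were inside a peak of each replicate, and those of *RBL1* were inside none. Of all 873 protein-coding promoters with E2F letters between 250 bp before and 50 bp after the TSS, 69.4% had a promoter peak in both replicates. That share asks for a peak at the promoter and not for letters inside it. Nothing particular to these genes is read from the count. No E2F letters were found in this window at *MDM4*, *CDKN1A*, *CDKN2A*, *CDKN2B* or *RBL2*.

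Across the 9 spans 37 regions were found, of which 28 were shared and 9 were in replicate 2 alone. None was in replicate 1 alone. Over all merged regions of the 2 B2B lists, 26.8% were in replicate 2 alone and 5.85% in replicate 1 alone. Of the 28 shared regions 15 lay within 1 kb of an annotated start site of the 9 genes and a further 9 at the promoter of another protein-coding gene. Of all 25366 shared regions, 10536 were at canonical promoters and 14830 were elsewhere. The 2 divisions are not alike, since each of the 9 spans was drawn around a gene and all annotated starts of the 9 genes were counted. The neighbours included *AKTIP* next to *RBL2*, the highest of the spans on the mean at 16.3 and 17.4, and *SAMHD1* next to *RBL1*, at 10.9 and 19.3. Summits of the replicates were a median of 59.5 bp apart at the 28 regions and 33 bp apart over all shared regions.

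**Figure D4:**
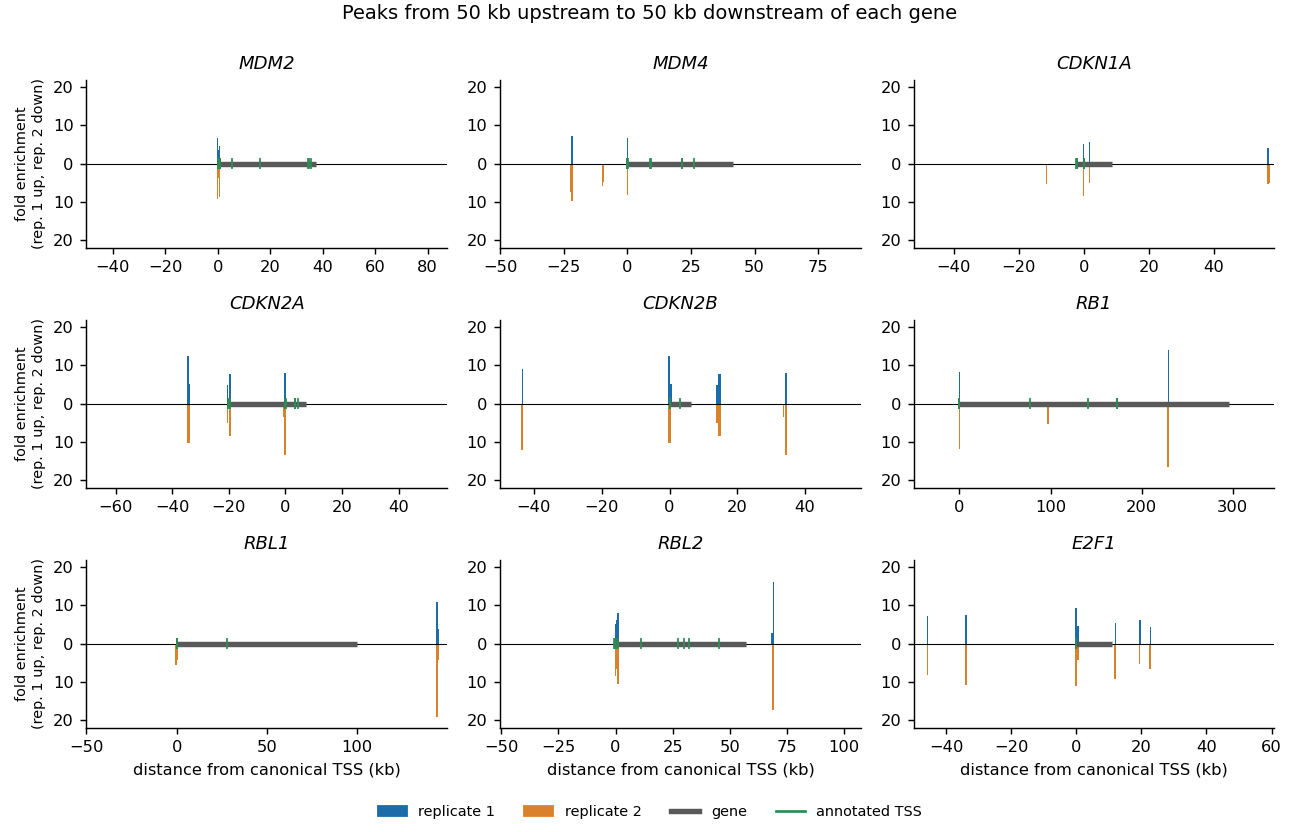
All peaks from 50 kb upstream to 50 kb downstream of each of the 9 genes, with replicate 1 upward in blue and replicate 2 downward in orange, by fold enrichment (y axis) and distance from the canonical TSS along the gene (x axis, kb). Grey lines are the genes, green ticks the annotated start sites, and narrow peaks are widened to be visible. Most bars stand at the TSS or at the promoter of a neighbouring gene. The bodies of *MDM2*, *MDM4*, *CDKN2B*, *RBL1*, *RBL2* and *E2F1* hold none beyond the peaks around the start.

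Of the 28 shared regions, 4 were distal, which here means outside all of these promoters. They were the intronic region of *CDKN1A*, the region 43.3 kb upstream of *CDKN2B*, an intergenic region 56.6 kb downstream of the *CDKN1A* TSS at 4.16 and 5.44, and an exonic region of *NECAB3* and *C20orf144* 22.8 kb downstream of the *E2F1* TSS at 4.33 and 6.63. The count rose to 9 with replicate 2 taken alone. For all protein-coding genes the count took only canonical promoters as promoters, so that the ARF pair is distal in it. By that count the 5 genes *MDM2*, *MDM4*, *RB1*, *RBL1* and *RBL2* had no distal shared region within 50 kb, as did 47.8% of all protein-coding genes. *CDKN2A* had none within 50 kb apart from the ARF pair. The nearest distal shared summit was 402 kb from the TSS of *MDM2*, 446 kb from *RB1* and 303 kb from *RBL2*. It was nearer at *RBL1*, at 106 kb, and at *MDM4*, at 77.6 kb. No such distances over all protein-coding genes are given here, so whether these are unusual is not known. By the number of shared regions per 100 kb, *E2F1* stood above 97.5% of genes, *CDKN2B* above 93.0% and *RB1* above 19.2%.

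Promoters other than the canonical one were mostly without a peak. Start sites within 500 bp of each other were joined, which gave 33 promoters for the 9 genes. Of these, 11 had a peak in both replicates, 1 in replicate 2 alone and 21 in neither. Over all protein-coding genes, 21.7% of promoters joined in this way had a peak in both replicates. Of the 24 promoters without the canonical TSS, 3 had a peak in both, namely *MDM2* P2, ARF and the internal start of *RBL2*. The share among such promoters of all protein-coding genes was 9.25%. The 1 kb windows of *MDM2* P2 and of the *RBL2* internal start also reach peaks counted for the canonical promoters. With start sites within 2 kb joined, 9 promoters had a peak in both replicates. The internal starts of *RB1*, *RBL1*, *CDKN2B* and *MDM4* had none, nor had the *CDKN1A* start next to the upstream p53 element.

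The AP-1 motif was searched as TGACTCA or TGAGTCA on both strands. Within 100 bp of the summit it was found at 1 of 24 shared promoter regions, *MDM2* P2, and at 0 of the 4 distal regions, against 2.89% of all shared promoter regions and 32.8% of all shared distal regions. With 4 distal regions this count says little. The shares over all regions again take only canonical promoters as promoters, whereas the ARF pair is among the 24 here. E2F letters were near the summit in 3 of the 24 promoter regions, namely the weak middle region of *MDM2*, ARF and *RB1*, against 3.53% of all, and in 0 of the 4 distal regions, against 0.91%. The p53 element was near the summit in 2 promoter regions, *MDM2* P2 and *CDKN2B*, and in 1 distal region, that upstream of *CDKN2B*, against 2.01% and 5.07% of all. With replicate 2 taken alone, 2 regions held the AP-1 motif and 5 the p53 element. These counts are a description, and a match of letters does not show that a factor was bound.

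The wider pathways were read in 4 lists of textbook genes. Among 31 p53 target genes 26 had a promoter peak in both replicates, which is 83.9% (95% Wilson interval 67.4 to 92.9). The strongest were *CCNG1*, a cyclin G gene, at 19.4 ± 0.826 (SD, n = 2), *TIGAR*, a regulator of glycolysis, at 18.9 ± 0.680 (SD, n = 2), and *TP53I3* at 16.0 ± 1.11 (SD, n = 2). Of the 5 without a peak in both, *BAX*, a pore-forming protein of apoptosis, had none in either. *BBC3*, which encodes PUMA, *TNFRSF10B*, a TRAIL receptor, and *TRIAP1* had a peak in replicate 2 alone, at 4.98, 4.98 and 4.53. *DDB2*, of nucleotide excision repair, had one in replicate 1 alone, at 5.02. The kinases *ATR* at 14.0 ± 0.470 (SD, n = 2), *ATM* at 13.6 ± 2.10 (SD, n = 2) and *CHEK1* at 11.0 ± 2.86 (SD, n = 2) led the 11 regulators of p53. Of these 11, 8 had a promoter peak in both replicates, or 72.7% (43.4 to 90.3). The exceptions were *CREBBP* and *RPL11*, with none, and *USP7*, with 5.44 in replicate 2 alone.

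Of 30 genes of the RB pathway 25 had a promoter peak in both replicates, which is 83.3% (66.4 to 92.7). The strongest were *TFDP2*, the dimerization partner of E2F factors, at 17.0 ± 1.78 (SD, n = 2), *SKP2*, which targets p27 for degradation, at 16.1 ± 2.84 (SD, n = 2), and *LIN52*, a subunit of the DREAM complex, at 15.5 ± 3.34 (SD, n = 2). *CCND1* and *CCND2*, the D-type cyclins whose kinases phosphorylate RB1, had no promoter peak in either replicate. *E2F2* and *E2F4* had a peak in replicate 2 alone, at 4.30 and 6.12, and *LIN54* in replicate 1 alone, at 5.37. Of 18 E2F target genes 17 had a promoter peak in both replicates, or 94.4% (74.2 to 99.0), led by *MCM3* of the replicative helicase at 21.1 ± 0.974 (SD, n = 2), *CDK1* at 17.2 ± 3.03 (SD, n = 2) and *TK1* at 16.9 ± 0.586 (SD, n = 2). E2F letters lay in the promoter of 11 of the 18 E2F targets, 8 of the 30 RB pathway genes, 2 of the 31 p53 targets and 0 of the 11 p53 regulators, against 4.36% of all protein-coding promoters.

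**Figure D5:**
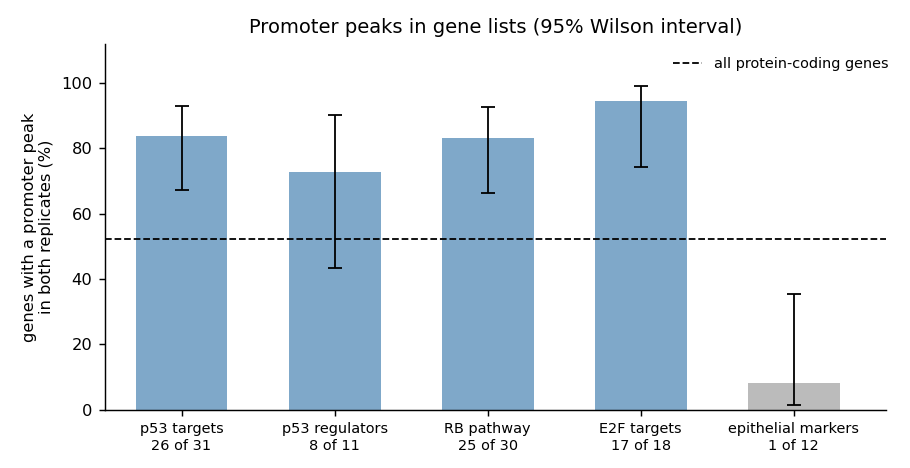
Share of genes with a promoter peak in both replicates (y axis, percent) in the 4 pathway lists and the epithelial marker list, with 95% Wilson intervals that cover counting error only, and the share of all protein-coding genes, 52.2%, as a dashed line. The interval of the p53 regulators includes the dashed line, those of the other pathway lists lie above it, and that of the epithelial markers lies below it. The dashed line takes no account of CpG content, and no test of the lists was made.

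All of these lists are set against 52.2% of all protein-coding genes. The pathway lists had median promoter CpG counts of 68 to 86.5 and the epithelial markers one of 44.5, against 66 over all genes. Among all protein-coding genes with 52 to 127 CpG dinucleotides near the TSS, 72.2% had a promoter peak in both replicates. That share lies inside the intervals of the p53 targets, the p53 regulators and the RB pathway. It lies just below the interval of the E2F targets, which starts at 74.2%. The range of 52 to 127 is that of the 9 genes and was not fitted to the lists. The part of CpG content in the counts was not tested.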

How the data were processed

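ATAC-seq was performed on 2 replicates of B2B cells. According to the study's methods, reads were mapped to hg38 with Bowtie2 2.4.4, duplicates were removed by custom code, and MACS2 2.2.7.1 called peaks with all remaining reads kept. SAMtools 1.13 is also named. The cut-position shift, the treatment of mitochondrial reads and the q limit are not given in the sources used here. The deposited lists hold 1 set of peaks per replicate, each peak with its fold enrichment, a linear ratio of fragments to local background. Significance in the authors' lists is a −log10 p-value and a −log10 q-value.

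Genes and start sites were taken from GENCODE 44 on hg38, with sequences read from that reference. Fold enrichment and −log10 p-value together give the number of fragments under a summit, which was recovered to within 0.01 of the deposited −log10 p-value for 99.7% and 99.8% of peaks. Peaks were joined when they overlapped by at least 1 bp. The steps were tested on simulated data. Scripts ran in Python 3.11.15 with scipy 1.17.1 and pandas 2.3.3, beside numpy 2.4.6, and plots were drawn with matplotlib 3.10.9.

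The 9 genes and the lists were chosen with earlier results of these data known. All 9 genes were described. From each list the 3 genes with the highest mean promoter fold enrichment and those without a promoter peak in both replicates, up to 6, were named, except 1 gene that is not reported here. Alternatives covered a stricter q limit, lists cut to the same length, single replicates, other promoter windows, start sites, flanks and overlaps, and other motif settings. The share among promoters of like CpG count and the shares with several regions or several E2F matches were added after the data were seen. With 1 condition no groups could be compared.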

Additional observations from a re-analysis of the deposited data

How the results depend on the processing

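The 8 genes with a promoter peak in both replicates, the 28 shared regions, the 11 open promoters and the counts of the 4 pathway lists stayed within 1.5 times under every alternative tried for them. Of 101 recomputed values 86 were close to the reported value and 15 moved. Leaving out each replicate in turn, with the higher counts always without replicate 1, gave 8 to 9 genes, 28 to 37 regions, 11 to 12 open promoters, 4 to 9 distal regions, and 1 to 2 regions with the AP-1 motif and 3 to 5 with the p53 element. The 4 distal regions became 2 with promoter windows of 3 kb, 2 within 25 kb of the genes and 8 within 100 kb, as these spans are smaller or larger. The count of 1 epithelial marker became 0 with windows of 500 bp, 2 with windows of 3 kb and 2 when every annotated start site was used. Regions with the AP-1 motif numbered 0 within 50 bp of the summit and 2 over the whole region. Those with E2F letters numbered 1 and 6, against 3. Those with the p53 element numbered 1 with at most 2 mismatches, against 3. No paired analysis was possible because there was 1 condition. Why the motif and marker counts moved was not tested. An absent peak does not show closed chromatin, as the fewest fragments at a listed summit were 16 in replicate 1 and 13 in replicate 2. Sequencing depth was not measured, and its part in the absent peaks was not tested.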
